A study of Mus musculus with 4 samples.

Results

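The 9 epidermal kallikreins *Klk5* to *Klk11*, *Klk13* and *Klk14* and their inhibitor *Spink5* were followed in the dorsal skin of imiquimod (IMQ)-treated mice. The 10 genes were found by their symbols among the 24346 genes listed for each library. Male C57BL/6 mice that were 8 weeks old at the start received the NASH diet for 3 weeks. This steatohepatitis-inducing diet is rich in fat, cholesterol, sucrose and bile salts. In the 7KC-IMQ group, the diet also held 7-ketocholesterol (7KC), an oxidized derivative of cholesterol, whereas the Cont-IMQ group received the NASH diet alone. IMQ cream, which induces psoriasis-like dermatitis, was applied to all mice for 1 day, so that neither untreated nor vehicle-treated skin enters the comparison. RNA sequencing gave 4 libraries, 2 in each group. The values are FPKM (fragment numbers scaled to gene length and to the mapped fragments of the library), and can therefore be set side by side between genes. Whole skin was sequenced, so a change in the number of keratinocytes and a change in RNA per keratinocyte cannot be told apart.

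Kallikreins are secreted serine proteases that keratinocytes of the upper epidermis release as inactive precursors. In the stratum corneum, they activate each other in a cascade and cut the corneodesmosomes, the junctions that hold corneocytes together, so that dead cells are shed. LEKTI, the inhibitor encoded by *Spink5*, holds several of these proteases in check, and its loss causes the severe barrier disease Netherton syndrome. Kallikreins are also known to act on the receptor PAR2 and on antimicrobial peptides.

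The kallikrein genes stand side by side on the plus strand of chromosome 7, between 43690418 and 43851181 of GRCm38 (mm10), a stretch of 160.8 kb. In the direction of transcription, their order is *Klk14*, *Klk13*, *Klk12* (not one of the 9), *Klk11*, *Klk10*, *Klk9*, *Klk8*, *Klk7*, *Klk6* and *Klk5*. *Spink5* lies on another chromosome. Promoter sequence from RefSeq (GRCm38.p6) was available for 11 annotated starts of the 9 kallikreins, from 250 bases before to 50 bases after each start. The stretches before the start are shown, chosen after the values were seen, for 4 kallikreins with large log2 differences between the groups (*Klk13*, *Klk10*, *Klk6* and *Klk9*) and for the abundant *Klk7* and *Klk5*. Bases in annotated GENCODE exons are left out, and only the upstream start of *Klk6* is shown. The *Klk5* stretch lies within the GENCODE gene, between an upstream exon of a second transcript and the RefSeq start. Capitals mark the letters CCACCC or their reverse complement GGGTGG.
*Klk13*, chr7:43712317-43712566, plus strand: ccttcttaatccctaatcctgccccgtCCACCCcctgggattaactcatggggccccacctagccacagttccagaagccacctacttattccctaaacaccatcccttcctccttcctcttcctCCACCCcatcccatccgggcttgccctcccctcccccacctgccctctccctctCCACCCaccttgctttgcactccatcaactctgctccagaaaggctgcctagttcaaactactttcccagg
*Klk10*, chr7:43780804-43781034, plus strand: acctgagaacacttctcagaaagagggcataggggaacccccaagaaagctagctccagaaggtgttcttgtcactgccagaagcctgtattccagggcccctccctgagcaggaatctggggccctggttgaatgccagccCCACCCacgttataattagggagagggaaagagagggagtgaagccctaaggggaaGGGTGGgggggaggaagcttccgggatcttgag
*Klk9*, chr7:43791641-43791890, plus strand: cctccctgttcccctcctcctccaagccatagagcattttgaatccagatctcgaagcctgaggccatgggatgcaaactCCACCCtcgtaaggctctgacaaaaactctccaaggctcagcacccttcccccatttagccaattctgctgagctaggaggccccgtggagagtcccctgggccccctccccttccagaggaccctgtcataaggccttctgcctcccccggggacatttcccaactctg
*Klk7*, chr7:43811044-43811293, plus strand: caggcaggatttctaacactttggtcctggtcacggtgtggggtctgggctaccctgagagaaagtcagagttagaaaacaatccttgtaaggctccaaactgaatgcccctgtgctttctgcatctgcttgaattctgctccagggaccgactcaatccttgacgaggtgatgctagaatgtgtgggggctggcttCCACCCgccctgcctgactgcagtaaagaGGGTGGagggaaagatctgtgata
*Klk6*, chr7:43824294-43824498, plus strand: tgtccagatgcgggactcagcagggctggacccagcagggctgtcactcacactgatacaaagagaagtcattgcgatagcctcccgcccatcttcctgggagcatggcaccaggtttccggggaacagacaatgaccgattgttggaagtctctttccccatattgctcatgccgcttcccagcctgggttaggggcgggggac
*Klk5*, chr7:43842068-43842268, plus strand: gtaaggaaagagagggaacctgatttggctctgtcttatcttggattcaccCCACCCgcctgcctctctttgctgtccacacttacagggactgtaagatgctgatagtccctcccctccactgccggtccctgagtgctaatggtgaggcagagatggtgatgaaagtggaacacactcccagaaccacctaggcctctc
The letters CCACCC were found on either strand in 7 of the 11 kallikrein windows (*Klk5*, *Klk7*, *Klk9*, *Klk10*, *Klk11*, *Klk13* and *Klk14*), against 31.5% of the 32851 mouse windows. They occurred in *Klk13* and *Klk10* as well as in *Klk7* and *Klk5*, and in neither window of *Klk6*. TTAAAA was found in 4 of the 11 windows (*Klk6*, *Klk8*, *Klk10* and *Klk11*), against 19.2% of all windows. TATAAA and the AP-1 motif TGANTCA were in 0 of the 11 windows, against 13.6% and 7.81%. These matches describe letters in these windows only.

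Levels differed widely among the 10 genes. *Klk7*, a chymotrypsin-like protease that cuts corneodesmosin, had the highest mean over the 4 libraries, 814 FPKM, and stood at rank 144 among all 24346 genes. *Klk6* followed at 452 FPKM, and its range (307 to 644) did not reach that of *Klk7* (699.9 to 964). Next came *Klk5* (mean 169.7 FPKM), *Spink5* (145 FPKM), *Klk10* (143 FPKM), *Klk8* (142 FPKM), *Klk9* (121 FPKM), *Klk11* (81.5 FPKM) and *Klk13* (54.3 FPKM). They formed a chain in which the range of each gene overlapped that of the next, so that neighbors are not ordered by their ranges. Genes further apart can be, as the range of *Klk5* (148 to 187) lay above those of *Klk11* (62.5 to 99.6) and *Klk13* (26.2 to 105). *Klk14* was apart at the bottom, with a mean of 1.37 FPKM, and the mean of *Klk7* was 596 times higher.

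Values were compared as log2(FPKM + 1) by limma with a variance trend over the 15896 genes with a mean of at least 0.1 FPKM, a filter that all 10 genes passed. All 10 means were higher in the 7KC-IMQ group, but by very different amounts. *Klk13*, *Klk10*, *Klk6*, *Klk14* and *Klk9* were 1.81 to 2.66 times higher in mean FPKM, whereas *Klk5* and *Spink5* differed by a factor of 1.03 and 1.06. None of the 10 passed an adjusted p of 0.05 (limma, Benjamini-Hochberg adjustment over all genes tested, 0.331 to 0.916). In the same test, 1 gene of 15896 passed (0.00629%). At an unadjusted p under 0.05, 5 of the 10 genes (*Klk6*, *Klk9*, *Klk10*, *Klk11* and *Klk13*) were higher and 0 lower, where 7.5% of all genes tested were higher and 5.47% lower. After rescaling all libraries to the same sum, these shares were 4.01% and 7.73%, and again 5 of the 10 genes were higher. In 7 of the 10 genes, the lower 7KC-IMQ value exceeded the higher Cont-IMQ value, which was the case in 23.9% of all genes tested (22.9% in the opposite direction). The median log2 difference was 0.44 over the 10 genes and -0.01 over all genes tested. With 2 libraries per group, no exact permutation p can be lower than 0.33, and since the labels do not name separate animals, p-values measure only the spread between these libraries.

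**Figure D1:**
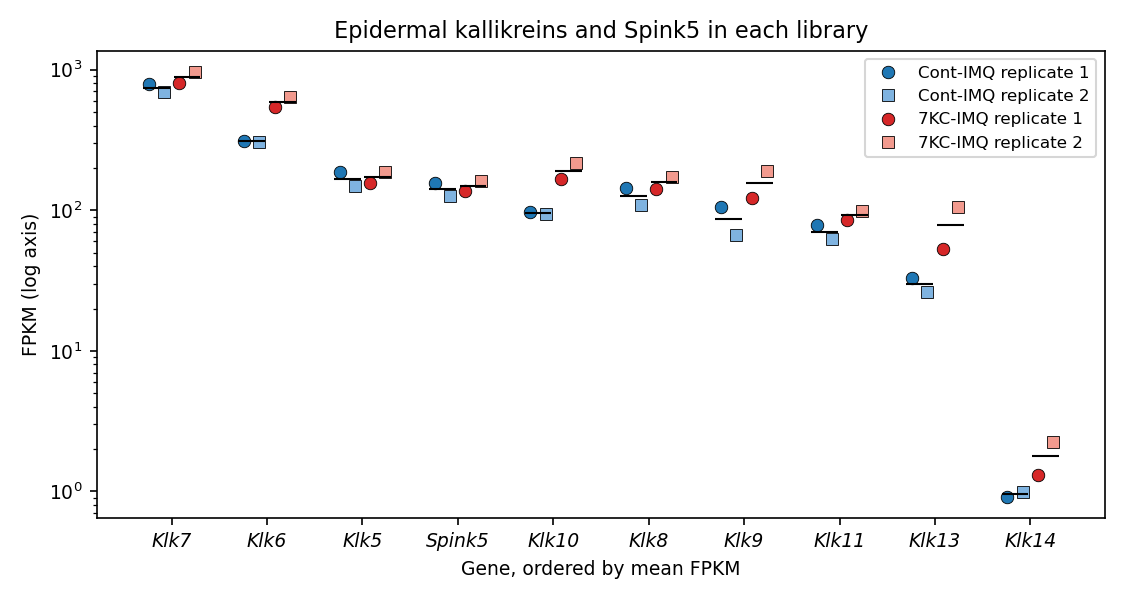
FPKM (log axis) of each gene in each library, with genes ordered by their mean; circles are replicate 1, squares replicate 2, blue Cont-IMQ and red 7KC-IMQ, and the bars are group means. Both 7KC-IMQ points lie above both Cont-IMQ points in 7 genes, whereas *Klk5*, *Klk8* and *Spink5* overlap.

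*Klk5* encodes the trypsin-like protease that can activate itself and then the products of *Klk7* and *Klk14*, and is placed at the head of the cascade. It had 186 FPKM (replicate 1) and 148 FPKM (replicate 2) under Cont-IMQ, against 158 and 187 FPKM under 7KC-IMQ. All pairs of values are given in this order. The groups overlapped, and the log2 difference was 0.05 with a 95% interval from -0.35 to 0.45 (limma, adjusted p = 0.916). *Klk7* had 786 and 699.9 FPKM (Cont-IMQ) against 805 and 964 FPKM (7KC-IMQ). Its groups did not overlap, although 7KC-IMQ replicate 1 was close to Cont-IMQ replicate 1, and the interval of the log2 difference of 0.25 included 0 (-0.11 to 0.60). *Klk14*, a further trypsin-like protease of desquamation, had only 0.918 and 0.989 FPKM against 1.32 and 2.24 FPKM, from an estimated 15 and 16 against 23 and 36 reads. At this depth, its log2 difference of 0.49 (standard error 0.19) had an interval from -0.01 to 0.99. Its mean FPKM was 1.86 times higher, and with a pseudocount of 0.1 in place of 1, the log2 difference was 0.79. Of its 75-base windows, 18.9% also occur in other annotated transcripts.

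On the log2(FPKM + 1) scale, *Klk13*, *Klk10*, *Klk6* and *Klk9* had the 4 largest differences of the 10 genes. *Klk13* had 33.1 and 26.2 FPKM (Cont-IMQ) against 52.7 and 105 FPKM (7KC-IMQ). The log2 difference was 1.31 (standard error 0.35, limma, adjusted p = 0.356), and 7KC-IMQ replicate 2 was well above replicate 1. *Klk10*, a candidate tumor suppressor of epithelial cells, had 96.8 and 93.5 FPKM against 167 and 216 FPKM. Both of its Cont-IMQ values were close together, and the log2 difference was 0.99 (standard error 0.14, limma, adjusted p = 0.342). *Klk6*, which encodes a trypsin-like protease of skin and brain, had 313 and 307 FPKM against 544 and 644 FPKM. Its log2 difference of 0.93 (standard error 0.11, limma, adjusted p = 0.331) had the smallest standard error and the smallest adjusted p of the 10 genes. *Klk9* had 105 and 66.9 FPKM against 121 and 190.5 FPKM, with a log2 difference of 0.85 (standard error 0.31, limma, adjusted p = 0.374). It was separated by the narrow gap between Cont-IMQ replicate 1 and 7KC-IMQ replicate 1.

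*Klk11* and *Klk8* differed less. *Klk11*, another trypsin-like kallikrein, had 78.6 and 62.5 FPKM (Cont-IMQ) against 85.2 and 99.6 FPKM (7KC-IMQ), a log2 difference of 0.39 (standard error 0.15, limma, adjusted p = 0.381). *Klk8*, which encodes neuropsin, had 144 and 108 FPKM against 143 and 173 FPKM. Its groups overlapped, with Cont-IMQ replicate 1 above 7KC-IMQ replicate 1, and the interval of the log2 difference of 0.33 reached from -0.13 to 0.79. As the strand setting of the counting is not given, reads of a gene and its antisense partner cannot be told apart. Of the 75-base windows of *Klk8*, 20.3% are shared with the antisense transcript 2310002F09Rik, whose own listed level was at most 0.028 FPKM. The 8 genes other than *Klk8* and *Klk14* shared no window with another gene.

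*Spink5* had 157 and 126 FPKM (Cont-IMQ) against 138 and 161 FPKM (7KC-IMQ). The groups overlapped, and the log2 difference of 0.09 had a 95% interval from -0.29 to 0.47 (limma, adjusted p = 0.828). Its 4 values followed those of *Klk5* closely. The FPKM ratio of *Klk5* to *Spink5* was 1.19 and 1.18 (Cont-IMQ) against 1.14 and 1.16 (7KC-IMQ), slightly lower without overlap.

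**Figure D2:**
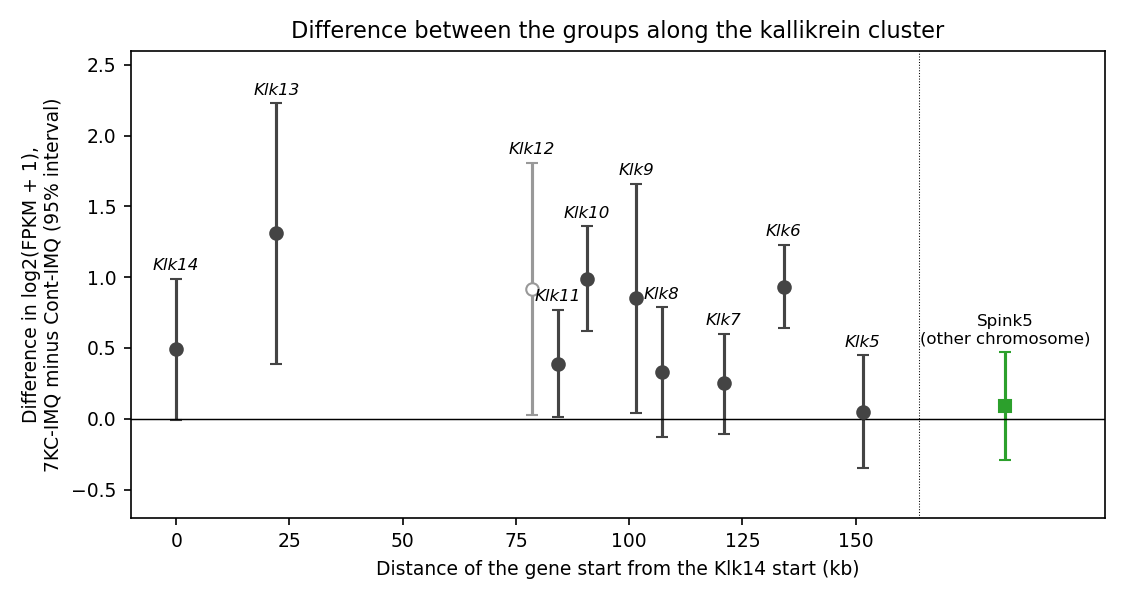
Difference between the groups in log2(FPKM + 1), with 95% intervals from limma, against the distance of each gene start from the *Klk14* start in kb; *Klk12* (open circle) is not one of the 9, and *Spink5* (green square) is set apart. Neighbors differ in size, with 0.99 in *Klk10* and 0.39 in its neighbor *Klk11*, and 0.93 in *Klk6* and 0.05 in its neighbor *Klk5*.

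Along the cluster, some genes next to each other differed by unlike amounts, and a relation between the size of the difference and position was not tested. *Klk6* and *Klk5* are neighbors, and their log2 differences were 0.93 and 0.05. *Klk10* lies between *Klk11* and *Klk9*, and the log2 differences of the 3 genes, in the order of the chromosome, were 0.39, 0.99 and 0.85. The difference between neighbors was not tested as such. Of 17 other kallikrein genes of the cluster, *Klk12* alone passed the filter, and 14 were listed at 0 in all 4 libraries, including *Klk4* and *Klk15*, which follow *Klk5*. *Klk12* had 2.53 and 1.19 FPKM (Cont-IMQ) against 3.12 and 5.68 FPKM (7KC-IMQ), with a log2 difference of 0.92 (limma, adjusted p = 0.377).

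Summed over the 9 kallikreins, the level was 1743 and 1514 FPKM (Cont-IMQ) against 2076 and 2582 FPKM (7KC-IMQ). The groups did not overlap, the log2 difference was 0.51, and the exact permutation test gave its smallest possible p of 0.33. The make-up of this sum also differed, and shares within a library do not depend on the scaling between libraries. A lower share is not a lower level, as the mean FPKM of every kallikrein was higher in the 7KC-IMQ group. *Klk7* made up 45.1% and 46.2% of the sum in the Cont-IMQ group and 38.8% and 37.3% in the 7KC-IMQ group. *Klk6* went the other way, with 18.0% and 20.3% against 26.2% and 24.95%. The share of *Klk5* was 10.7% and 9.78% against 7.59% and 7.25%, and that of *Klk10* was 5.56% and 6.18% against 8.04% and 8.37%. *Klk13* had 1.90% and 1.73% against 2.54% and 4.07%. The groups also did not overlap for the smaller shares of *Klk8* (8.25% and 7.16% against 6.87% and 6.71%) and *Klk11* (4.51% and 4.13% against 4.10% and 3.86%), although Cont-IMQ replicate 2 was close to the 7KC-IMQ libraries in both. Only *Klk9* and *Klk14* overlapped in their share.

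**Figure D3:**
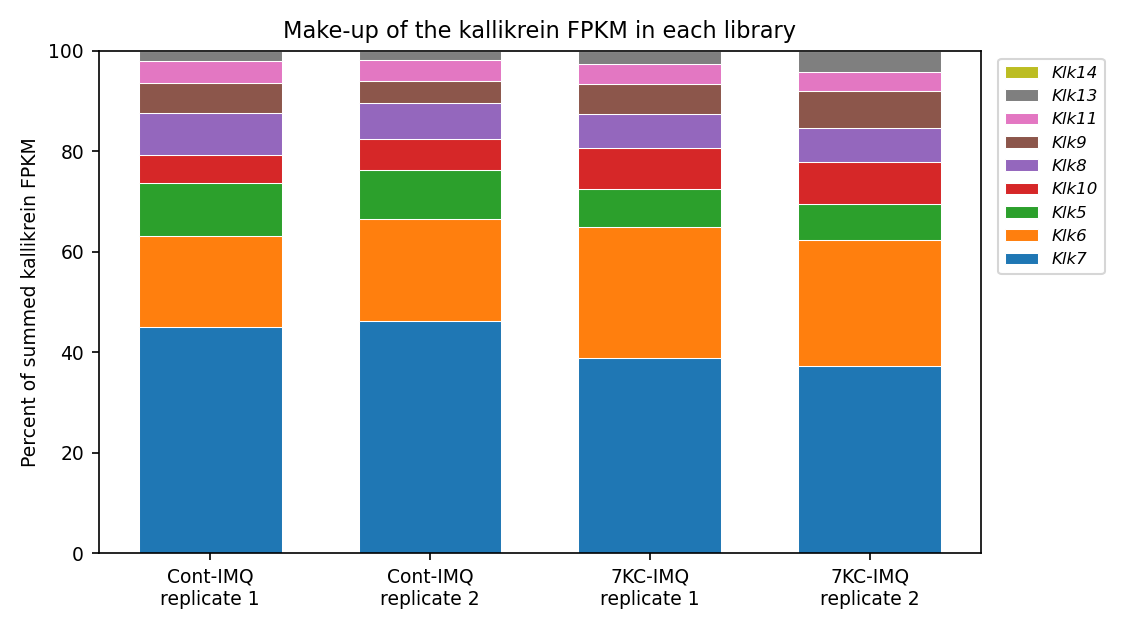
Percent of the summed FPKM of the 9 kallikreins held by each gene, with 1 bar for each library. *Klk7* takes 45.1% and 46.2% in the Cont-IMQ libraries and 38.8% and 37.3% in the 7KC-IMQ libraries, and *Klk6* takes 18.0% and 20.3% against 26.2% and 24.95%.

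LEKTI is known to inhibit some of these proteases, such as KLK5, KLK7 and KLK14, but not each of them. The summed kallikrein level was divided by the *Spink5* level of the same library. The ratio was 11.1 and 12.02 (Cont-IMQ) against 15.1 and 16.01 (7KC-IMQ), without overlap. The mean ratio was 11.6 ± 0.632 against 15.5 ± 0.672 (SD, n = 2), a difference of 3.96. On the log2 scale, the difference was 0.42, and the exact permutation p was 0.33. Without *Klk7*, the most abundant kallikrein, the ratio was 6.11 and 6.46 against 9.22 and 10.03, a log2 difference of 0.61. By single gene, the ratio to *Spink5* was 2.00 and 2.44 against 3.945 and 3.995 for *Klk6*, and 0.618 and 0.743 against 1.21 and 1.34 for *Klk10*. For *Klk7*, the ratio was 5.02 and 5.56 against 5.84 and 5.98, a much smaller gap. For *Klk5*, it was slightly lower under 7KC-IMQ (1.19 and 1.18 against 1.14 and 1.16, a log2 difference of -0.04). These are ratios of transcripts and not of proteins or of protease activity.

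**Figure D4:**
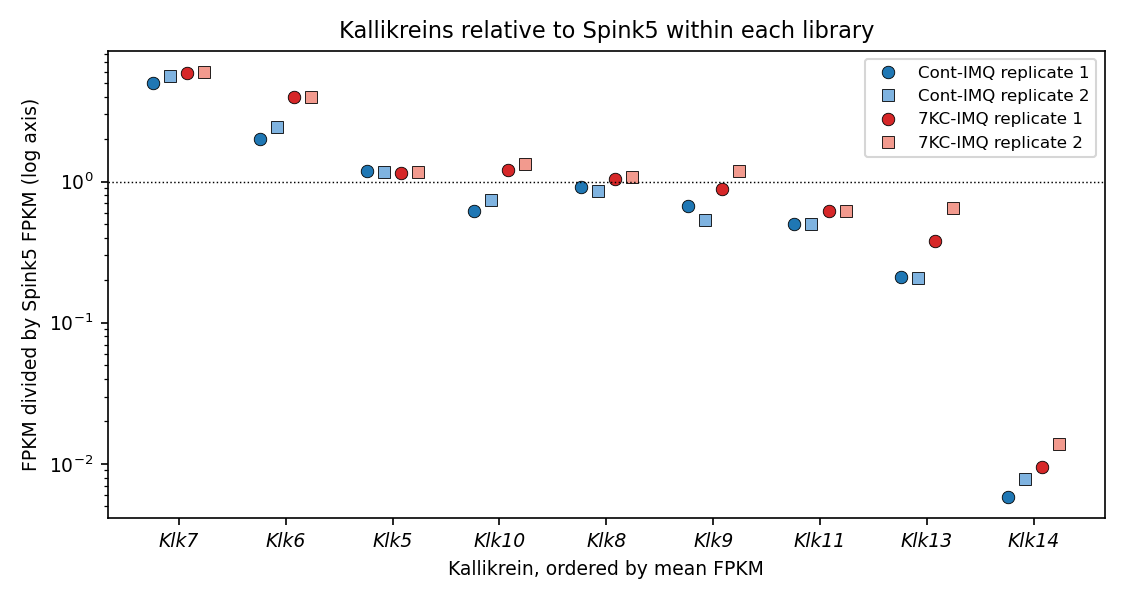
FPKM of each kallikrein divided by the FPKM of *Spink5* in the same library (log axis), with symbols and colors for each library as labelled; the dotted line marks equal levels. The 4 points of *Klk5* fall together between 1.14 and 1.19, whereas the *Klk6* points lie at 2.00 and 2.44 in the Cont-IMQ group and at 3.945 and 3.995 in the 7KC-IMQ group.

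Within each group, the 10 genes moved together from library to library. All 10 were higher in 7KC-IMQ replicate 2 than in replicate 1, and 9 of 10 were higher in Cont-IMQ replicate 1 than in replicate 2, where 51.0% and 49.6% of all genes tested were. These genes are therefore not independent of each other, and the counts above share that spread. The summed level of the hair follicle markers was 136 and 1642 FPKM (Cont-IMQ) against 494 and 436 FPKM (7KC-IMQ). Cont-IMQ replicate 1 thus lay below both 7KC-IMQ libraries, and Cont-IMQ replicate 2 above both. Each library was also left out in turn. With 1 library left in a group, the spread comes from the other group alone, and the lone library is assumed to vary like it. Without Cont-IMQ replicate 2, the log2 difference was 0.96 for *Klk10*, 0.92 for *Klk6*, 1.15 for *Klk13* and 0.53 for *Klk9*. Each of these differences was larger without Cont-IMQ replicate 1. Without 7KC-IMQ replicate 2, *Klk13* differed by 0.82 in place of 1.31.

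The 5 genes closest to the mean kallikrein pattern, by the root mean square distance of centred log2(FPKM + 1) values over the 4 libraries, were *2010204K13Rik*, *Rbp2*, *Cnfn*, *Cd274* and *P2ry2*, among 13100 genes with a mean of at least 1 FPKM. Their distances were 0.006 to 0.043, and the kallikreins themselves lay 0.127 (*Klk14*) to 0.399 (*Klk13*) from their mean. The 5 genes were picked as the closest of the 13100, so their smaller distances follow from that choice. *Cnfn*, which encodes cornifelin of the cornified envelope, had 1068 and 899.9 FPKM (Cont-IMQ) against 1313 and 1650.1 FPKM (7KC-IMQ). *Rbp2*, which encodes a retinol-binding protein, had 119 and 102 FPKM against 143 and 202 FPKM. With 4 libraries, this closeness describes these samples only.

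Other genes of the kallikrein pathway differed in both directions. Of 37 genes tested over the 6 lists, none passed an adjusted p of 0.05 in limma. At an unadjusted p under 0.05, 7 were higher and 3 lower, where 7.5% and 5.47% of all genes tested were. In each list, counts of separated genes are to be read against 23.9% higher and 22.9% lower among all genes tested. Of 6 other *Spink* genes tested, 0 were separated between the groups, with a median log2 difference of -0.05. Among them, *Spink1*, *Spink8* and *Spink12* averaged only 0.163 to 0.224 FPKM, and *Spink7* had 0 and 10.7 FPKM within the 7KC-IMQ group. A difference in these genes could hardly show. Of 7 other epidermal protease inhibitors tested, 5 were higher and 1 lower without overlap, with a median of 0.18. *Slpi*, which encodes the secretory leukocyte protease inhibitor, had 105 and 85.0 FPKM (Cont-IMQ) against 201 and 242 FPKM (7KC-IMQ), a log2 difference of 1.21 (limma, adjusted p = 0.331). *Wfdc12*, of the same WAP domain family, had 17.8 and 8.18 against 24.1 and 39.8 FPKM. *Spint1*, which encodes an inhibitor of matriptase, had 45.3 and 47.5 against 53.5 and 54.6 FPKM. *Serpina12*, which encodes vaspin, an inhibitor of KLK7, went the other way with 36.6 and 29.02 against 20.3 and 14.7 FPKM, a log2 difference of -0.88 (limma, adjusted p = 0.354).

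Of 11 other proteases of the epidermis tested, 4 were higher and 0 lower without overlap, with a median log2 difference of 0.11. *Prss27*, a serine protease of squamous epithelia, had 75.4 and 48.5 FPKM (Cont-IMQ) against 123 and 165 FPKM (7KC-IMQ), a log2 difference of 1.22 (limma, adjusted p = 0.352). *Blmh*, whose product breaks down filaggrin, had 305 and 263 against 317 and 422 FPKM. *Ctsd* and *Ctsl*, which encode cathepsins, both differed by 0.11.

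Of 5 genes tested for corneodesmosome proteins, which kallikreins cut, 0 were higher and 1 lower without overlap, with a median log2 difference of 0.02. *Dsg1a*, a desmoglein 1 gene, had 174 and 140.5 FPKM (Cont-IMQ) against 111 and 112 FPKM (7KC-IMQ), a log2 difference of -0.48 (limma, adjusted p = 0.356). *Dsg1a*, *Dsg1b* and *Dsg1c* are close copies, between which reads can be split. Of 7 other kallikrein substrates tested, 2 were higher and 3 lower without overlap, with a median of 0.14. *Flg2* and *Hrnr*, which encode filaggrin-like proteins, had 96.3 and 79.0 against 60.0 and 34.9 FPKM, and 94.8 and 71.4 against 58.1 and 65.3 FPKM. *Il1b* had 11.1 and 16.4 against 24.9 and 22.4 FPKM. *Camp*, the cathelicidin gene, had 0.336 FPKM in Cont-IMQ replicate 1, was at 0 in the other Cont-IMQ library, and reached 0.628 and 0.682 FPKM under 7KC-IMQ.

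**Figure D5:**
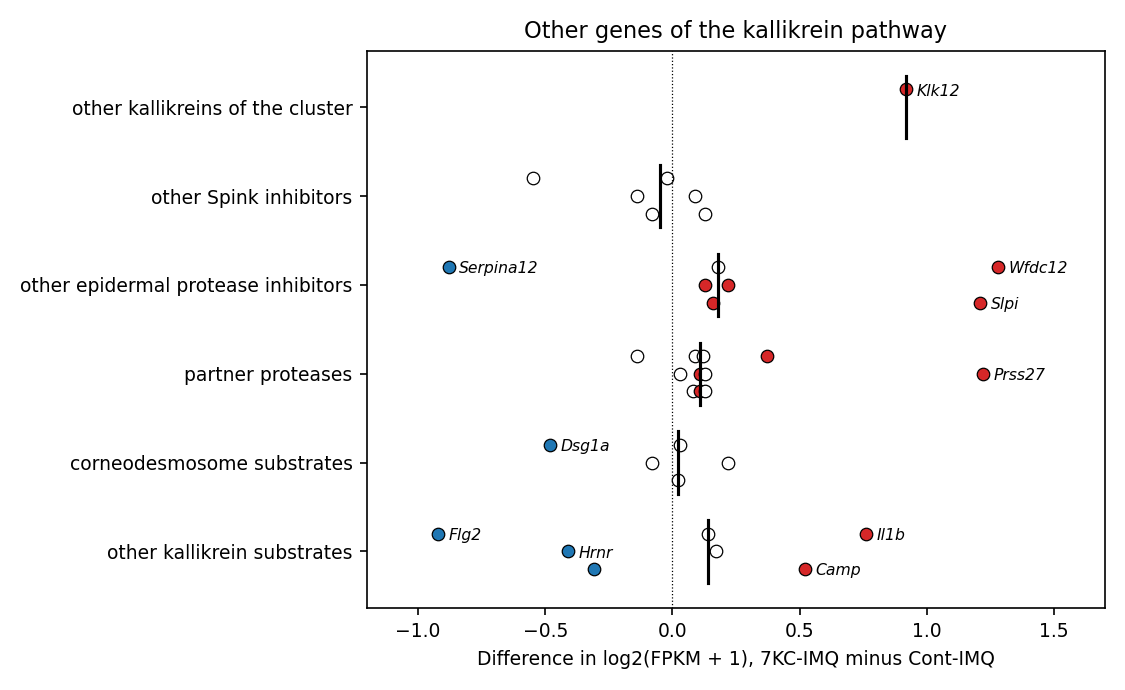
Difference between the groups in log2(FPKM + 1) for each tested gene of 6 pathway lists; filled points are genes separated without overlap (red higher, blue lower in 7KC-IMQ), open points overlap, and the bar is the median of the list. *Slpi*, *Wfdc12* and *Prss27* lie above 1, while *Serpina12* and *Flg2* lie near -0.9, and the medians of the 5 lists with more than 1 gene lie between -0.05 and 0.18.

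The tissue label was checked by marker lists, and the level of each list was summed per library. Counts of genes separated without overlap are again to be read against 23.9% higher and 22.9% lower among all genes tested. They cover only markers that passed the filter, which were 8 of the 11 neutrophil markers and 4 of the 5 T cell markers. Epidermal markers were abundant. The 19 granular layer markers, of the layer that releases kallikreins, summed to 23934 and 18878 FPKM (Cont-IMQ) against 19959 and 22221 FPKM (7KC-IMQ), with 3 genes higher and 3 lower without overlap and a median log2 difference of -0.02. The 8 spinous markers (16330.0 and 9861 against 10924 and 11654 FPKM, 0 higher and 2 lower) and the 8 basal markers (8137 and 7291 against 8112 and 8913 FPKM, 2 higher and 3 lower) overlapped in their sums as well. The sum of the 8 sebaceous gland markers was higher without overlap (1318 and 1067 against 1560 and 1465 FPKM, 5 genes higher and 2 lower), as was that of the 11 neutrophil markers (20.5 and 26.1 against 32.1 and 35.1 FPKM, 5 higher and 1 lower). Most of the neutrophil sum was *Cxcr2* (13.4 and 15.0 against 20.2 and 23.0 FPKM), *Mmp9* was the lower gene, and *Elane*, *Mpo*, *Ltf*, *Ngp*, *Cd177* and *Stfa2l1* were listed at 0 in at least 1 library. The sums of 5 endothelial markers (50.001 and 54.9 against 42.2 and 40.1 FPKM, 4 lower), 6 macrophage markers (355 and 399.5 against 322 and 317 FPKM, 3 lower) and 5 T cell markers (16.1 and 14.5 against 12.3 and 9.85 FPKM, 2 lower and 1 higher) were lower. Those of 15 hair follicle markers (0 separated), 11 muscle markers (9653 and 9127 against 7974 and 9343 FPKM), 6 adipocyte markers (1006 and 1449.8 against 1434 and 988 FPKM) and 6 fibroblast markers (3406 and 2446 against 3178 and 2788 FPKM) overlapped. The part of these differences in the kallikrein values was not tested.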

How the data were processed

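The 4 libraries of dorsal skin (total RNA, stranded mRNA kit, 75-base single-end reads) were mapped by the authors to mm10. The submitters' processing notes name TopHat2 2.1.1, Bowtie2 2.2.8, SAMtools 0.1.18 and Cuffdiff 2.2.1. The authors deposited FPKM values, 1 file per library. Read counts are not used here. How reads that map to several genes or to either strand were counted is not given in the sources used here. Depth was estimated from the low FPKM values of single-transcript genes, which come close to whole reads at 14990000 to 16210000 mapped reads per library (75.2% to 78.9% within 0.1 of a whole read, 20% by chance). Estimated reads cover counting error only.

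From the deposited FPKM, log2(FPKM + 1) was tested with limma (version 3.58.1, R version 4.3.3), using a variance trend and Benjamini-Hochberg adjustment at 0.05, over genes whose FPKM averaged 0.1 or more. Fold changes on this scale understate differences at low FPKM. The test was checked on simulated data. Exact permutation tests were two-sided (SciPy 1.17.1). Sample groups and replicate numbers came from the labels. The 10 genes, the 6 pathway lists (other kallikreins, other *Spink* genes, other protease inhibitors, other proteases, corneodesmosome and other substrates) and the 12 marker lists were chosen with earlier results of these data known. Of 167 listed genes, 5 (*Spink3*, *A2ml1*, *Flg*, *Ly6g* and *Trdc*) were not found by symbol. In each pathway list, up to 4 genes separated without overlap and with the largest differences are named. Gene models came from GENCODE M21 (GRCm38). The alternatives were another pseudocount, other filters, 3 other scalings, a constant variance, blocking on the replicate number, and leaving out each library.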

Additional observations from a re-analysis of the deposited data

How the results depend on the processing

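Of 120 alternative values (12 for each of the 10 genes), 113 kept the direction and none passed an adjusted p of 0.05 (limma, 0.179 to 0.994). The other 7 were reversed, all in *Klk5* and *Spink5*. *Klk5* differed by -0.05 under quantile normalization and by -0.03 after rescaling to the same sum, and *Spink5* by -0.02 under quantile normalization. With each library left out in turn, *Klk5* ranged from -0.11 to 0.21 and *Spink5* from -0.07 to 0.24. Without 7KC-IMQ replicate 2, *Klk7* (0.12), *Klk14* (0.25), *Klk13* (0.82), *Klk6* (0.81), *Klk10* (0.8) and *Klk9* (0.53) had their lowest values. So did the median of the 10 genes (0.26). The lowest values of *Klk8* (0.13) and *Klk11* (0.23) came without Cont-IMQ replicate 2, which also gave 0.53 for *Klk9*. The highest were 0.38 for *Klk7* without 7KC-IMQ replicate 1 and 0.53 for *Klk8* without Cont-IMQ replicate 1. The count of the 10 genes higher at an unadjusted p under 0.05 was 3 with no filter on low values (6.96% of all genes) and 2 to 5 with a library left out (2.09% to 7.49%), against 5 (7.5%). The median of the other cluster kallikreins was -0.07 with no filter, where *Klk1* and *Klk1b11*, near 0 FPKM, enter. The median of the other kallikrein substrates was -0.08 with a mean FPKM of at least 1, which removes *Camp*, and ranged from -0.05 to 0.32 with a library left out. The summed kallikrein level differed by 0.35 to 0.67 and its ratio to *Spink5* by 0.37 to 0.61 over their alternatives. Sample labels give both groups the same replicate numbers, and the deviations of same-numbered libraries had a correlation of 0.078 over 13110 genes, so nothing shows that a number pairs samples. With the replicate number as a block, 0 of the 10 genes were called and 4 were higher at an unadjusted p under 0.05, beside 1 called and 6.15% higher of all 15896 genes. Depth limits *Klk14*, which rests on 15 to 36 estimated reads.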
